A study of Mus musculus with 12 samples.

Results

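The mitochondrial ribosomal protein genes were taken as all genes whose symbol starts with *Mrpl* (large subunit) or *Mrps* (small subunit) followed by a digit. This gave 76 genes with 132 probes, out of 19057 genes with a probe on the array. Each gene was read through its brightest probe, the one with the highest mean over the 12 arrays. The probe of *Mrpl32* did not exceed the array median on 2 arrays, which left 75 members among 15582 genes tested. *Mrpl41* and *Mrps36* were not analysed here.

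The 12 samples were mouse CD4+ T cells, each hybridized to its own array (Illumina Mouse WG-6 v2), and all cells came from Foxp3GFP mice, which mark *Foxp3*-expressing cells with GFP. There were 4 arrays of naive CD4+ cells, 4 of Treghi cells (regulatory T cells induced in high TGF-β) and 4 of TregHAR cells (induced in low TGF-β with harmine, a plant alkaloid that inhibits the kinase DYRK1A), and within each treatment the naive precursors of 2 arrays had been purified by fluorescence-activated sorting (FACS) and those of 2 arrays on magnetic columns (MACS). The induced cells were sorted for GFP on day 4, and since cells kept in low TGF-β alone were not among the arrays, what harmine did and what the TGF-β dose did cannot be told apart. By the study's methods, Treg cultures were stimulated with plate-bound anti-CD3 and anti-CD28 and supplied with IL-2. No culture day is given for the naive arrays. In comparisons with them, Treg induction cannot be told apart from stimulation and culture. Nothing in the labels states whether both arrays of a group had their own animal or culture, and p-values therefore measure only the spread between these arrays, which may in part be technical.

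Sex-linked transcripts differed between the arrays. *Xist*, which is transcribed from the inactive X chromosome of females, was at log2 intensities of 8.19 and 8.47 on the first FACS and MACS arrays of naive cells and at 5.76 and 5.84 on the second. The Y-linked gene *Eif2s3y* was below the background ceiling on the first arrays and at 8.07 and 8.08 on the second, so the 2 naive arrays of a purification were not repeats of 1 RNA. All 8 induced arrays had *Xist* signal, from 8.98 to 10.49, and 4 of them also had *Eif2s3y* above the ceiling, at 6.38 to 6.99. Sex-linked signal thus differed between naive and induced cells, and the comparisons with naive cells are also given against the 2 naive arrays with *Xist* signal alone.

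The mitochondrial ribosome translates the few mRNAs of the mitochondrial genome, which encode core subunits of the oxidative phosphorylation complexes. Its RNAs are made inside mitochondria, whereas all of its proteins are encoded in the nucleus, translated in the cytosol and imported. Some of these proteins have a counterpart in the bacterial ribosome and the others were gained in the mitochondrial lineage. Activation of naive T cells is known to come with growth of the mitochondrial network and with a rise in mitochondrial translation.

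Between 29.9% and 30.2% of the probes exceeded a background ceiling on an array, and replicate arrays correlated at 0.980 to 0.992 across probes. Of the 75 members, 66 exceeded the ceiling on all 12 arrays and 6 on some of them. *Mrpl45*, *Mrps14* and *Mrpl19* exceeded it on none, so that their differences say nothing about level. Of 8 regulatory T cell markers 5 rose in each kind of induced cell, and the summed marker intensity was 5397 to 6711 in Treghi, 8358 to 10542 in TregHAR and 1626 to 1737 in naive arrays. The naive arrays also held signal of other cells, since the summed intensity of 14 myeloid markers was 3223 to 6462 in FACS and 16515 to 34402 in MACS naive arrays, against 870 to 923 in induced cells. The summed intensity of 8 B cell markers was 1826 to 2272, 8520 to 11077 and 659 to 866 in the same order. That of 4 erythroid and platelet markers was 1004 to 4343, 6127 to 8223 and 235 to 264. That of 5 CD8 T and NK markers was 2701 to 3374 in FACS and 4494 to 4655 in MACS naive arrays. It was 2137 to 2471 in Treghi and 2774 to 3542 in TregHAR arrays, so for these markers only MACS naive arrays stood above all induced arrays. In such bulk samples, fewer cells of a type and less RNA per cell cannot be told apart.

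More members were higher than lower in TregHAR cells relative to naive cells. The labels do not tie these naive arrays to the cells from which the induced ones were grown. At an adjusted p under 0.05, 33 of 75 were called higher and 5 lower, where 13.9% of all genes tested were called higher and 13.8% lower. The median difference of the members was 0.26 on the log2 scale, against -0.01 for all genes. The median level over members was 9.28, 9.11, 9.14 and 8.91 on the naive arrays and 9.33, 9.29, 9.27 and 9.25 on the TregHAR arrays. By this median the first FACS naive array lay within the TregHAR range. Among the 66 members above the ceiling on all arrays 32 were higher and 5 lower, that is 48.5% and 7.58%, against 24.7% and 25.1% of the 6109 genes of that brightness. Against the 2 naive arrays with *Xist* signal alone, 23 members were higher and 6 lower (10.6% and 11.7% of all genes), with each single naive array assumed to vary like the other groups. The 4 TregHAR arrays lay above all 4 naive arrays for 30 members and below them for 4, where 13.9% and 13% of all genes tested showed such a separation. The normalization sets the distribution of all probes equal between arrays, so each value is relative to the other transcripts and not an amount per cell.

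Treghi cells gave a similar count against the same naive arrays, with 26 members called higher and 8 lower. The background was 12.9% of genes higher and 13.3% lower, and the median difference of the members was 0.18, against -0.01 for all genes. Without the second MACS array of Treghi cells that median was 0.10, and with arrays scaled to a common median it was 0.31. Against the 2 naive arrays with *Xist* signal alone, 20 members were higher and 8 lower (9.85% and 11% of all genes). Groups did not overlap for 25 members that were higher and 6 that were lower (background 13.8% and 13%). The median level over members was 9.13 to 9.28 on the Treghi arrays, within the range of the naive arrays. Since both comparisons use the same naive arrays, they are not independent of each other, and the values of each are given side by side below.

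**Figure D1:**
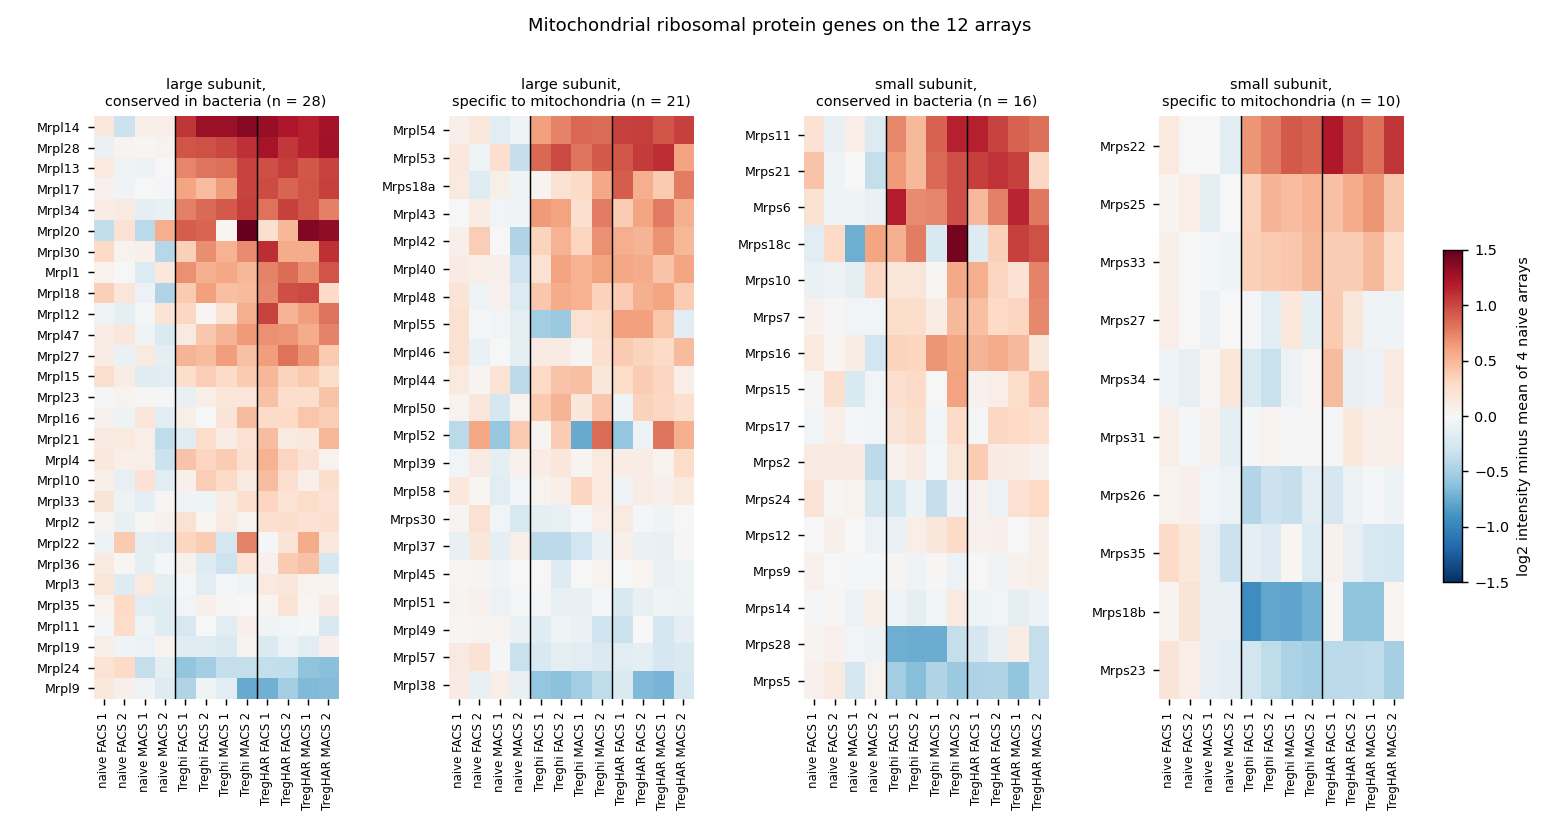
Level of each of the 75 members (rows) on each of the 12 arrays (columns), as log2 intensity minus the mean of the 4 naive arrays, with a panel for each subunit and origin and rows ordered by TregHAR minus naive. The upper rows of each panel are red in all 8 induced columns, a few rows at the bottom are blue, and most rows between them stay within 0.5 of the naive mean.

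The proteins of the large subunit with a bacterial counterpart held the largest differences. Of 28 such members tested, 16 were higher and 2 lower in TregHAR cells (median 0.35), and 12 were higher and 1 lower in Treghi cells (median 0.28). *Mrpl14*, a protein at the face of the large subunit that meets the small subunit, had log2 intensities of 9.40 and 8.92 on the FACS and 9.32 and 9.34 on the MACS naive arrays. They were 10.32, 10.54, 10.54 and 10.61 in Treghi cells and 10.55, 10.47, 10.42 and 10.49 in TregHAR cells. Every induced array was above every naive array, and the 2 induced groups overlapped. The log2 difference from naive was 1.23 ± 0.10 (SE, 2.35-fold, adjusted p = 1.29e-05) in TregHAR and 1.26 ± 0.10 (adjusted p = 1.28e-05) in Treghi cells.

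*Mrpl28* had the smallest adjusted p of all members. Its log2 intensities were 10.03, 10.16, 10.14 and 10.17 in naive, 11.07, 11.08, 11.13 and 11.22 in Treghi and 11.36, 11.18, 11.28 and 11.39 in TregHAR cells. The naive group was again separate from both induced groups, whose ranges overlapped slightly. The difference from naive was 1.18 ± 0.07 (adjusted p = 1.06e-06) in TregHAR and 1.001 ± 0.07 (adjusted p = 3.43e-06) in Treghi cells. *Mrpl13* rose by 0.99 ± 0.07 and 0.84 ± 0.07, *Mrpl17* by 0.96 ± 0.09 and 0.68 ± 0.09, and *Mrpl34* by 0.89 ± 0.07 and 0.89 ± 0.07 in TregHAR and Treghi cells, with adjusted p of at most 0.000257. None of these 3 members overlapped between naive and induced arrays.

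*Mrpl12* encodes the stalk protein that recruits translation factors to the ribosome and is also known to bind the mitochondrial RNA polymerase. Its log2 intensities were 9.60, 9.52, 9.64 and 9.86 in naive, 9.96, 9.67, 9.88 and 10.20 in Treghi and 10.66, 10.16, 10.28 and 10.46 in TregHAR cells. TregHAR arrays were above all naive arrays, while Treghi arrays overlapped with both other groups. The difference from naive passed the test in TregHAR cells (0.74 ± 0.13, adjusted p = 0.00172) and not in Treghi cells (0.27 ± 0.13, adjusted p = 0.170), and the difference between the 2 induced groups did not pass either (0.46 ± 0.13, adjusted p = 0.182). *Mrpl10*, which anchors that stalk, had differences of 0.26 ± 0.11 (adjusted p = 0.113) and 0.22 ± 0.11 (adjusted p = 0.202). With arrays scaled to a common median, *Mrpl12* passed in Treghi cells too (0.42, adjusted p = 0.0300), as did *Mrpl10* in both (0.45 and 0.41, adjusted p = 0.00962 and 0.0164).

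A few members of the same class ran the other way. *Mrpl9* had log2 intensities of 9.28, 9.20, 9.07 and 8.93 in naive and 8.40, 8.60, 8.46 and 8.47 in TregHAR cells, with 8.66, 9.07, 8.96 and 8.36 in Treghi cells. All TregHAR arrays were below all naive arrays, whereas Treghi arrays spread across both. It fell by 0.64 on the log2 scale in TregHAR cells (SE 0.13, adjusted p = 0.00543), and the Treghi difference was -0.36 ± 0.13 (adjusted p = 0.0873). The TregHAR difference was -0.53 within MACS precursors (adjusted p = 0.0840). *Mrpl24* had 9.53 and 9.62 on the FACS and 8.96 and 9.17 on the MACS naive arrays, 8.72, 8.81, 8.97 and 8.97 in Treghi and 8.96, 8.95, 8.72 and 8.69 in TregHAR cells. Its level was highest on the FACS naive arrays, and the lower MACS naive array overlapped with the induced arrays. The differences were -0.49 ± 0.06 (adjusted p = 0.000257) and -0.45 ± 0.06 (adjusted p = 0.000474). The Treghi value averages -0.81 within FACS precursors and -0.10 within MACS precursors, where it was not called (adjusted p = 0.566). *Mrpl3*, whose bacterial counterpart reaches toward the peptidyl transferase centre, had differences of 0.11 ± 0.09 and -0.08 ± 0.09, neither past the test.

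Of the 21 tested members of the large subunit without a bacterial counterpart, 9 were higher and 1 lower in TregHAR cells (median 0.21), and 7 were higher and 2 lower in Treghi cells (median 0.13). *Mrpl54* had 9.71, 9.78, 9.46 and 9.57 in naive, 10.25, 10.37, 10.49 and 10.47 in Treghi and 10.66, 10.67, 10.58 and 10.65 in TregHAR cells. The 3 groups did not overlap, in the order naive, Treghi, TregHAR. The differences from naive were 1.01 ± 0.06 (adjusted p = 1.50e-06) and 0.76 ± 0.06 (adjusted p = 9.68e-06) in TregHAR and Treghi cells. *Mrpl53* rose by 0.92 ± 0.15 (adjusted p = 0.000918) and 0.89 ± 0.15 (adjusted p = 0.00122).

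*Mrpl38* was the member of this class that fell in each kind of induced cell, by 0.46 in TregHAR (SE 0.13, adjusted p = 0.0210) and by 0.53 in Treghi cells (SE 0.13, adjusted p = 0.0115). The TregHAR call of *Mrpl38* was lost without any one of 4 arrays (the first of each naive pair, the second FACS and the first MACS array of TregHAR cells, adjusted p from 0.0677 to 0.0830) and under median scaling (-0.32, adjusted p = 0.0738), and the Treghi call without the first FACS naive array (adjusted p = 0.0507). *Mrpl37* was called lower in Treghi cells alone (-0.29 ± 0.09, adjusted p = 0.0393). That call was kept without each of 7 arrays and lost without each of the other 5, the second array of each naive pair, both FACS and the first MACS array of Treghi cells (adjusted p from 0.0995 to 0.145). *Mrps18a* and *Mrps30* carry small subunit symbols although their proteins sit in the large subunit. The former rose by 0.65 ± 0.13 in TregHAR cells (adjusted p = 0.00329) and was at 0.28 ± 0.13 in Treghi cells (adjusted p = 0.148), and the latter was at 0.01 ± 0.08 and -0.04 ± 0.08. *Mrpl58*, a peptidyl-tRNA hydrolase built into the ribosome, was at 0.07 ± 0.07 and 0.15 ± 0.07, and *Mrpl44*, which has the fold of an RNase III enzyme, at 0.27 ± 0.13 and 0.34 ± 0.13, all without passing the test. Without the first MACS naive array *Mrpl44* passed in both (0.42 and 0.49, adjusted p = 0.0114 and 0.00540), and *Mrpl58* passed in Treghi cells within MACS precursors (0.33, adjusted p = 0.0476).

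**Figure D2:**
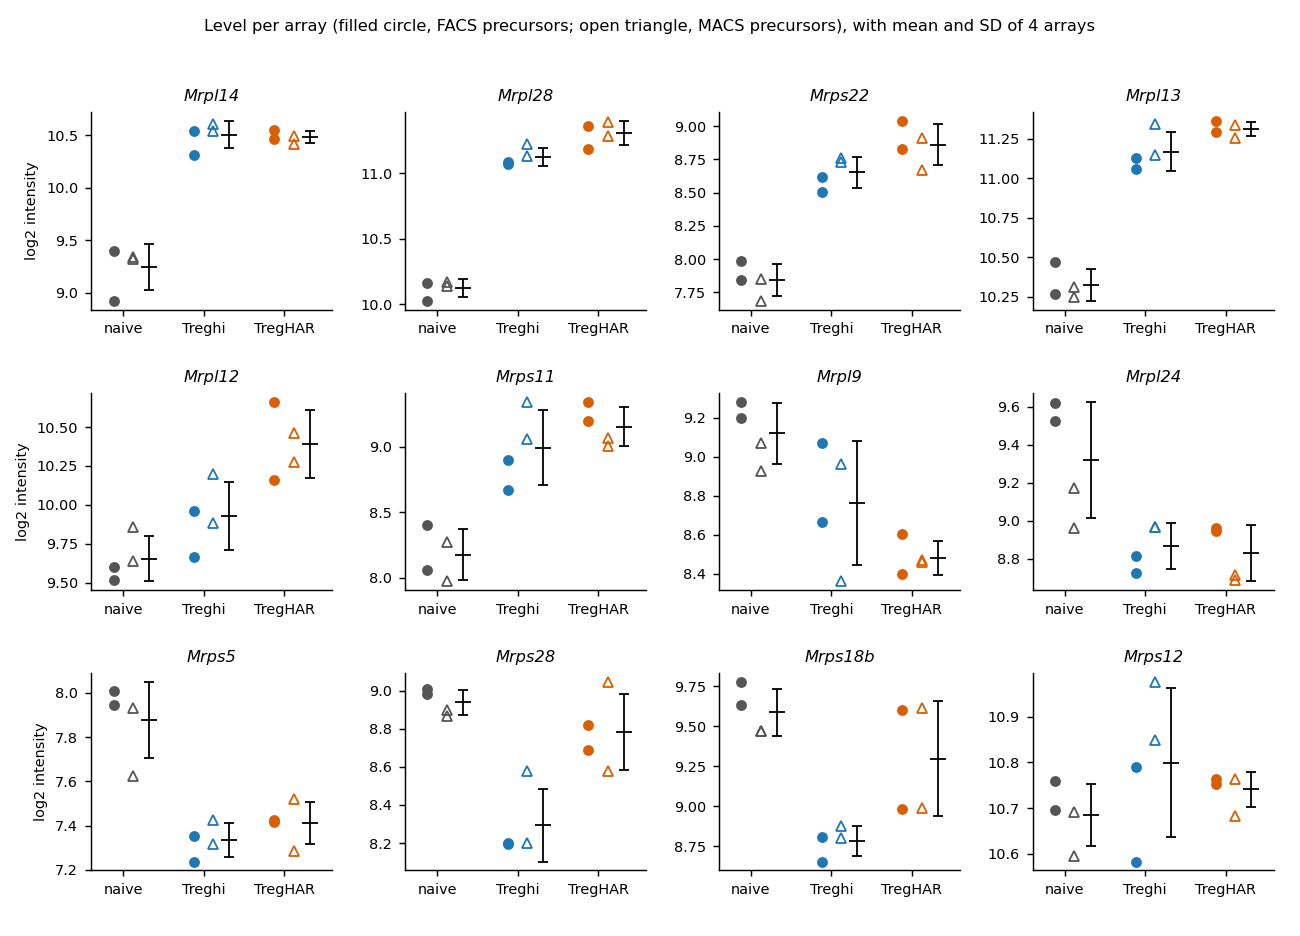
Log2 intensity (vertical axis, scaled per gene) of 12 members on each array, by treatment, with filled circles for cells from FACS-purified and open triangles for cells from MACS-purified precursors and the mean and SD of 4 arrays beside them. The induced arrays of *Mrpl14*, *Mrpl28*, *Mrps22*, *Mrpl13* and *Mrps11* lie above all naive arrays, those of *Mrps5* lie below them, and those of *Mrps12* overlap with naive.

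In the small subunit, 5 of 16 members with a bacterial counterpart were higher and 1 lower in TregHAR cells (median 0.21), and 4 were higher and 2 lower in Treghi cells (median 0.21). *Mrps11* had 8.40, 8.06, 8.27 and 7.98 in naive, 8.89, 8.67, 9.06 and 9.34 in Treghi and 9.34, 9.19, 9.07 and 9.001 in TregHAR cells. Naive arrays stood apart from both induced groups, which overlapped. It rose by 0.97 ± 0.11 (adjusted p = 0.000102) and 0.81 ± 0.11 (adjusted p = 0.000364). *Mrps6* rose by 0.79 ± 0.13 and 0.90 ± 0.13 and *Mrps21* by 0.86 ± 0.16 and 0.74 ± 0.16 in TregHAR and Treghi cells. The Treghi call of *Mrps21* was lost within FACS precursors (0.38, adjusted p = 0.373) and against the naive arrays with *Xist* signal (0.52, adjusted p = 0.0909). *Mrps16* rose by 0.43 ± 0.10 (adjusted p = 0.00850) and 0.48 ± 0.10 (adjusted p = 0.00492), the latter at 0.24 within FACS precursors (adjusted p = 0.329). The TregHAR difference of *Mrps16* did not pass within FACS (0.45, adjusted p = 0.0525) or MACS precursors (0.41, adjusted p = 0.0691). It was 0.30 against the naive arrays with *Xist* signal. By the t-test named in the study's methods neither difference passed (adjusted p = 0.0752 and 0.0507). *Mrps12*, part of the decoding centre, was at 0.06 ± 0.07 and 0.11 ± 0.07 and passed in neither, although with arrays scaled to a common median it passed in both (0.24 and 0.31, adjusted p = 0.0285 and 0.00879).

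*Mrps5*, whose bacterial counterpart lies at the mRNA entry of the small subunit, was the member that fell in both comparisons. Its log2 intensities were 7.94, 8.01, 7.62 and 7.93 in naive, 7.35, 7.24, 7.42 and 7.32 in Treghi and 7.42, 7.42, 7.29 and 7.52 in TregHAR cells. No induced array reached the lowest naive array. The differences were -0.47 ± 0.08 (adjusted p = 0.00217) and -0.54 ± 0.08 (adjusted p = 0.000910), and with the mean over its probes the former was -0.21 (adjusted p = 0.0514). *Mrps28* was called lower in Treghi cells alone, with 8.98, 9.01, 8.90 and 8.86 in naive, 8.20, 8.20, 8.20 and 8.58 in Treghi and 8.69, 8.82, 9.04 and 8.58 in TregHAR cells. Treghi was the low group, although its highest array overlapped with the lowest TregHAR array, at -0.64 ± 0.11 (adjusted p = 0.00186) from naive, and TregHAR overlapped with naive at -0.15 ± 0.11 (adjusted p = 0.394).

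Among the 10 small subunit members without a bacterial counterpart, 3 were higher and 1 lower in TregHAR cells (median 0.09), and 3 were higher and 3 lower in Treghi cells (median -0.08). *Mrps22*, mutated in inherited human mitochondrial disease, had 7.98, 7.84, 7.85 and 7.69 in naive, 8.50, 8.62, 8.76 and 8.73 in Treghi and 9.04, 8.83, 8.67 and 8.91 in TregHAR cells. All induced arrays exceeded all naive arrays. It rose by 1.02 ± 0.08 (adjusted p = 1.12e-05) and 0.81 ± 0.08 (adjusted p = 5.59e-05). *Mrps25* and *Mrps33* also rose, by 0.51 ± 0.08 and 0.38 ± 0.06 in TregHAR cells and by 0.46 ± 0.08 and 0.42 ± 0.06 in Treghi cells.

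*Mrps18b* had the largest fall of any member, in Treghi cells. Its log2 intensities were 9.63, 9.78, 9.47 and 9.47 in naive, 8.65, 8.81, 8.80 and 8.88 in Treghi and 9.60, 8.99, 8.99 and 9.62 in TregHAR cells. Treghi arrays were below all others, and the TregHAR arrays formed 2 levels, with 1 array of each purification at each level. The differences from naive were -0.80 ± 0.16 (adjusted p = 0.00352) in Treghi and -0.29 ± 0.16 (adjusted p = 0.228) in TregHAR cells. *Mrps23* fell by 0.42 and 0.41 in TregHAR and Treghi cells (SE 0.06 for each, adjusted p = 0.000417 and 0.000520), and *Mrps26* fell by 0.32 in Treghi cells alone (SE 0.07, adjusted p = 0.00567), a call lost under median scaling (-0.18, adjusted p = 0.199). Within MACS precursors the Treghi calls of *Mrps18b* (-0.63, adjusted p = 0.0816), *Mrps28* (-0.49, adjusted p = 0.0608) and *Mrps26* (-0.19, adjusted p = 0.236) did not pass.

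By subunit, 25 of 49 large subunit members were higher and 3 lower in TregHAR cells (median 0.32), and 8 of 26 small subunit members were higher and 2 lower (median 0.15). In Treghi cells the counts were 19 higher and 3 lower for the large subunit (median 0.22) and 7 higher and 5 lower for the small subunit (median 0.10). These counts and those of the classes above stand against 13.9% of all genes higher and 13.8% lower in TregHAR cells. In Treghi cells 12.9% of all genes were higher and 13.3% lower. Whether these classes differ from each other was not tested.

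**Figure D3:**
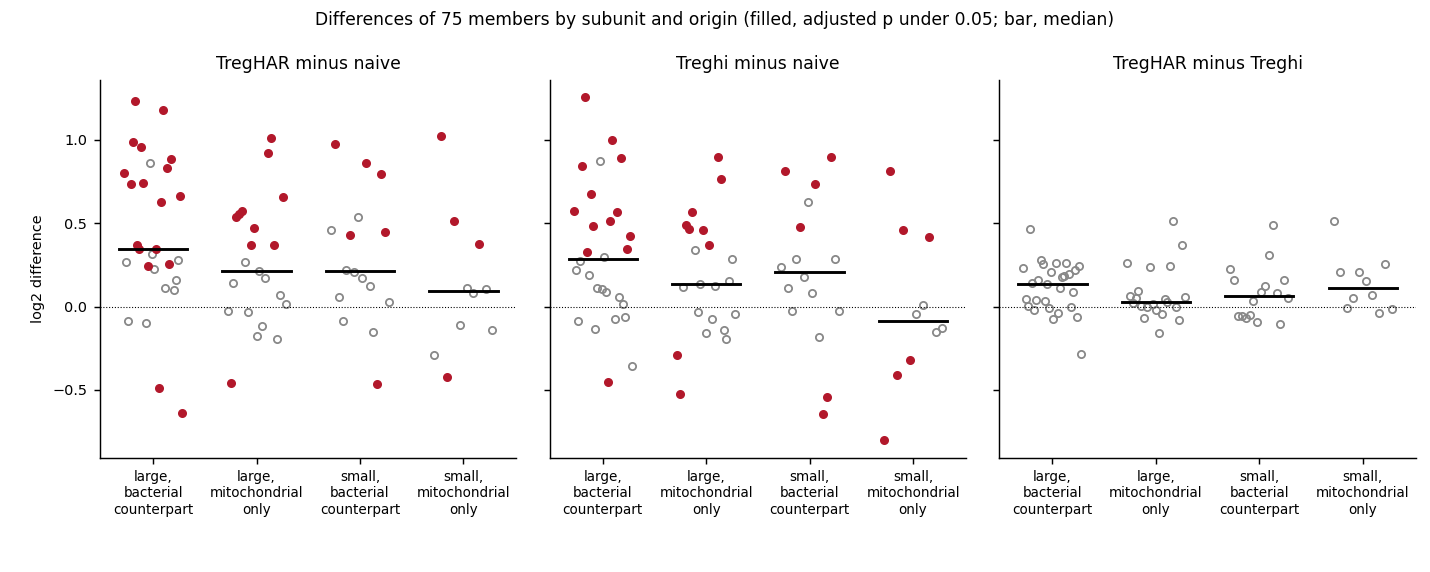
Log2 difference (vertical axis) of each of the 75 members in the 3 treatment comparisons, by subunit and by presence of a bacterial counterpart, with filled points for an adjusted p under 0.05 and a bar at the median. Filled points lie between -0.80 and 1.26 in the comparisons with naive cells, and the right panel has none.

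Between the 2 kinds of induced cells no member passed the threshold. The test called 73 genes in all (0.468%) and 0 members. At an unadjusted p under 0.05, 17 members were higher and 0 lower in TregHAR cells, where 5.54% of all genes were higher and 5.26% lower. Of the 75 differences 52 were above 0, that is 69.3% against 49.6% of all genes, and their median was 0.07 against -0.000942 for all genes. The median level over members was 9.13 to 9.28 on Treghi and 9.25 to 9.33 on TregHAR arrays, which overlapped. Its SD between arrays of a group was 0.09. All members were read on the same arrays, so counts of members are not counts of replicates. The TregHAR arrays lay above all Treghi arrays for 6 members and below them for 0, with a background of 3.41% and 3.18%. The t-test named in the study's methods, on the same values, called 13 members higher and 0 lower before adjustment and 0 after it.

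The members with the smallest p in that comparison differed by up to 0.51 on the log2 scale, and none passed the threshold. *Mrpl55* had the smallest, with 7.17, 7.14, 7.92 and 7.97 in Treghi, 8.30, 8.31, 8.11 and 7.54 in TregHAR and 7.92, 7.66, 7.65 and 7.54 in naive cells. The 2 Treghi arrays from FACS precursors were low and the last TregHAR array was low, so the groups overlapped. The difference was 0.51 ± 0.12 (95% interval 0.26 to 0.77, adjusted p = 0.108), at 1.15 within FACS and -0.12 within MACS precursors. Without the second MACS array of TregHAR cells it was 0.66 with an adjusted p of 0.0192. *Mrpl54*, whose arrays did not overlap, differed by 0.25 ± 0.06 (95% interval 0.11 to 0.38, adjusted p = 0.126).

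*Mrps28* and *Mrps18b*, which were called lower in Treghi but not in TregHAR cells, differed between the induced groups by 0.49 ± 0.11 (95% interval 0.24 to 0.74, adjusted p = 0.112) and 0.51 ± 0.16 (0.16 to 0.86, adjusted p = 0.226). Neither difference was called. With *Mrpl12*, given above, the 10 smallest p also included *Mrpl23*, *Mrpl17*, *Mrps24*, *Mrps26* and *Mrpl47*, with differences between 0.21 and 0.31 and adjusted p between 0.188 and 0.272.

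**Figure D4:**
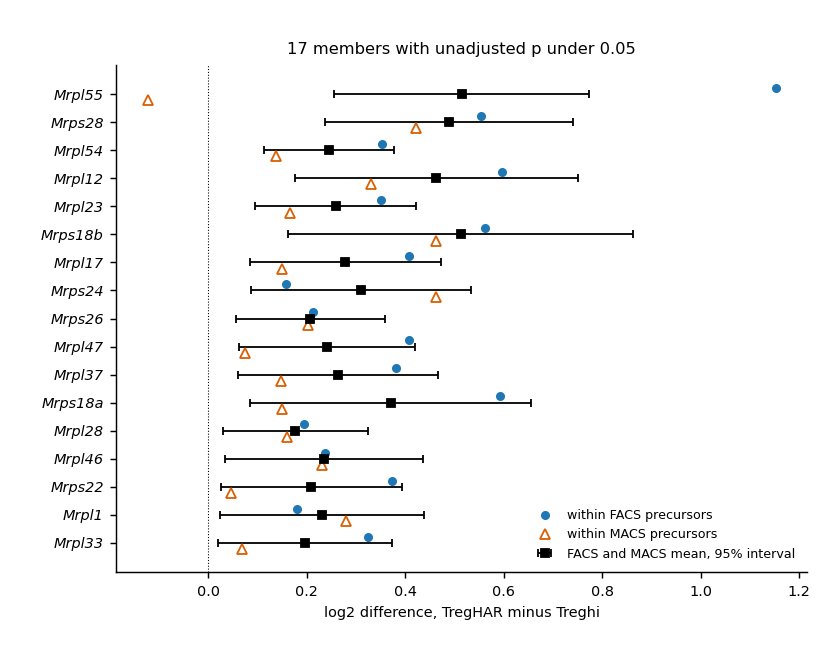
Log2 difference between TregHAR and Treghi cells (horizontal axis) of the 17 members with an unadjusted p under 0.05, as the mean of both purifications with its 95% interval (squares) and within FACS (circles) and MACS precursors (triangles). All 17 lie above 0, from 0.18 for *Mrpl28* to 0.51 for *Mrpl55*, and the value of *Mrpl55* within MACS precursors is below 0.

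The purification of the precursors was compared within each treatment. In naive cells 1 member was called, *Mrpl24*, which was lower after MACS (-0.51 ± 0.09, adjusted p = 0.0232), where 1.39% of all genes were called and 0.0385% lower. It was not called without either of the 2 FACS naive arrays. The median of the members was -0.14, and 0 were higher and 12 lower at an unadjusted p under 0.05, against 5.68% and 4.18% of all genes. The signal of other cells described above moved with this comparison, and its part in it was not tested. No member was called between purifications in Treghi or TregHAR cells, where the test called 0 genes (unadjusted, 5 members higher and 0 lower against 1.41% and 1.06% of all genes, and 0 higher and 3 lower against 1.77% and 1.93%). No treatment difference of a member depended on purification at the threshold, where the test of that interaction called 0.546% of all genes for TregHAR minus naive, 0.565% for Treghi minus naive and 0 for TregHAR minus Treghi. At an unadjusted p under 0.05 the interaction was positive for 1 and negative for 0 members in the first (2.57% and 4.65% of all genes), positive for 15 and negative for 0 in the second (2.43% and 3.78%), and positive for 0 and negative for 6 in the third (2.27% and 2.66%). The smallest adjusted p of such an interaction was 0.0509, for *Mrpl24* in Treghi minus naive (0.71 ± 0.13).

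Counted within cells from FACS precursors, where the naive arrays held less signal of other cells, 18 members were higher and 4 lower in TregHAR cells (background 9.68% and 9.05%) and 14 higher and 10 lower in Treghi cells (8.6% and 8.07%). Within cells from MACS precursors the counts were 27 higher and 2 lower (10.1% and 10.3%) and 24 higher and 2 lower (9.22% and 9.11%). The medians of the members were 0.23 and 0.37 for TregHAR and 0.13 and 0.29 for Treghi cells within FACS and MACS precursors.

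The promoters of several members that moved are shown because they hold motifs of factors known for nuclear genes of mitochondrial proteins. The sequences are those of RefSeq on GRCm38.p6, the 100 bases before the annotated start, read 5′ to 3′ along the gene. Capitals mark matches to the NRF1 motif (GCGC, any 2 bases, GCGC), the ETS motif CCGGAAG bound by GABP, and the motif of THAP11 and ZNF143 (ACTACA, any 2 bases, TCC). In the *Mrpl34* sequence the first THAP11/ZNF143 match and the CCGGAAG match share 1 base.
Mrpl34 (chr8:71464826-71464925, + strand): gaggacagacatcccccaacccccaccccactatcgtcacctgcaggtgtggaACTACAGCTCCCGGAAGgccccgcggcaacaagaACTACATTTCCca
Mrps22 (chr9:98601680-98601779, - strand): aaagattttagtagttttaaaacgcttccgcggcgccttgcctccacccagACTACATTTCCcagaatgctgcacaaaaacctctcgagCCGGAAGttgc
Mrpl53 (chr6:83109008-83109107, + strand): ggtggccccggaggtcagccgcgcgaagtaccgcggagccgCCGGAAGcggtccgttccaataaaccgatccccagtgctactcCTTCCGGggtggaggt
Mrpl17 (chr7:105811088-105811187, - strand): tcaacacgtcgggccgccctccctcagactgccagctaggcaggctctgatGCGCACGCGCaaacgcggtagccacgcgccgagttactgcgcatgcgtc
Mrps21 (chr3:95871515-95871614, - strand): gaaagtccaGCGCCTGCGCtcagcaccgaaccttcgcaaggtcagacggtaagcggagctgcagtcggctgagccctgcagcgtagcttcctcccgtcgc
Mrpl9 (chr3:94443236-94443335, + strand): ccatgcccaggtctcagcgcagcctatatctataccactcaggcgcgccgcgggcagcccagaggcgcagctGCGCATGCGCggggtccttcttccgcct

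Of the 76 members, 67 had a promoter sequence, and the 250 bases before the start were searched on both strands. The ETS motif was found for 18 of these 67 genes (26.9%), against 12.2% of the 12490 genes tested that had a sequence and 7.83% of all 27025 genes with a sequence. NRF1 was found for 10 (14.9%, against 9.52% and 5.64%), the THAP11/ZNF143 motif for 5 (7.46%, against 3.51% and 2.09%), the YY1 motif AAGATGGC for 4 (5.97%, against 1.99% and 1.83%) and the E-box CACGTG, which MYC binds, for 5 (7.46%, against 8.74% and 6.86%). Of the 18 members with the ETS motif 10 were called higher and 0 lower in TregHAR cells, where 30 of all 66 tested members with a sequence were higher and 4 lower. Of all tested genes with the motif 18.9% were higher and 15.9% lower. In Treghi cells 9 of the 18 were called higher and 1 lower, where 22 of the 66 were higher and 6 lower. Of all tested genes with the motif 17.3% were higher and 17.3% lower in Treghi cells. The NRF1 motif stood before *Mrps21* and *Mrpl17*, which rose, and before *Mrpl9*, which fell. The THAP11/ZNF143 motif stood before *Mrpl34* and *Mrps22*, which rose, and before *Mrpl24*, which fell. *Mrpl14*, the member with the largest rise, had no match to any of these motifs and is not shown. A match is a string of letters and was not tested as a binding site.

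*Mrps11* and *Mrpl46* lie head to head, with their starts 42 bases apart, and the 41 bases between the starts, read along *Mrps11*, are shown because the pair joins both subunits.
Mrps11 and Mrpl46 (chr7:78783090-78783130, + strand): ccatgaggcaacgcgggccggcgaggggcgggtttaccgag
*Mrps11* rose as given above, and *Mrpl46* was 10.05, 9.72, 9.82 and 9.68 in naive, 9.94, 9.94, 9.86 and 10.07 in Treghi and 10.21, 10.15, 10.10 and 10.29 in TregHAR cells. Only the TregHAR arrays of *Mrpl46* were all above naive, at 0.37 ± 0.09 (adjusted p = 0.0113), with 0.13 ± 0.09 (adjusted p = 0.359) in Treghi cells. A start on the other strand within 1000 bases upstream was found for 25 of the 67 members with a sequence (37.3%), against 15.9% of tested genes with a sequence.

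Genes of other mitochondrial functions were counted for comparison. Nuclear oxidative phosphorylation subunits, the partners of the proteins that mitochondrial ribosomes make, had 45 of 70 genes higher and 0 lower in TregHAR cells (median 0.42) and 35 higher and 2 lower in Treghi cells (median 0.37). Cytosolic ribosomal proteins had 4 of 57 higher and 11 lower (median -0.05) and 5 higher and 6 lower (median -0.06). These are 7.02% and 8.77% higher and 19.3% and 10.5% lower, against a background of 13.9% and 12.9% higher and 13.8% and 13.3% lower. All 12 proliferation genes tested were higher in each kind of induced cell (medians 2.55 and 2.08), and their part in the members' differences was not tested.

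Lists of proteins that work with the mitochondrial ribosome held genes called in each direction, to be read against the 13.9% of all genes higher and 13.8% lower in TregHAR cells and 12.9% and 13.3% in Treghi cells. The 4 mitochondrial ribosomal proteins with other symbols included 2 that rose in TregHAR cells, *Chchd1* by 0.76 ± 0.08 and *Dap3*, a GTP-binding small subunit protein, by 0.35 ± 0.11. Of 14 translation factors 4 were higher (28.6%) and 1 lower (7.14%), among them the initiation factor *Mtif2* (0.81 ± 0.15) and the elongation factors *Tufm* (0.59 ± 0.18) and *Tsfm* (0.42 ± 0.09), with *Mtif3* at -0.28 ± 0.08. Assembly factors had 3 of 26 higher (11.5%) and 7 lower (26.9%) in TregHAR and 2 higher (7.69%) and 10 lower (38.5%) in Treghi cells. The lower ones included *Mettl17* (-1.08 ± 0.09), the rRNA methyltransferase *Mrm1* (-0.88 ± 0.13), the small subunit maturation factor *Rbfa* (-0.60 ± 0.08) and the helicase *Dhx30* (-0.46 ± 0.12), values for TregHAR cells.

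Of 15 mitochondrial aminoacyl-tRNA synthetases 4 were higher (26.7%) and 2 lower (13.3%) in TregHAR cells, with *Ears2* at -0.90 ± 0.16 and *Mars2* at -0.50 ± 0.07, and 1 was higher (6.67%) and 5 lower (33.3%) in Treghi cells. Of 15 genes of mitochondrial transcription and RNA handling 2 were higher (13.3%) and 1 lower (6.67%) in TregHAR cells, shares at or below the background, and *Slirp*, which protects mitochondrial mRNAs, was the largest at 1.22 ± 0.10. Of 10 nuclear regulators of mitochondrial genes 2 were higher (20%) and 4 lower (40%) in TregHAR cells. *Ppargc1b* (-1.24 ± 0.11), *Pprc1* (-0.70 ± 0.14), *Esrra* (-0.42 ± 0.09) and *Gabpa* (-0.39 ± 0.10), a subunit of GABP, were lower and *Thap11* (0.45 ± 0.09) and *Myc* (0.30 ± 0.07) higher, with adjusted p between 1.86e-05 and 0.0156. The 13 genes encoded by the mitochondrial genome were not analysed here.

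**Figure D5:**
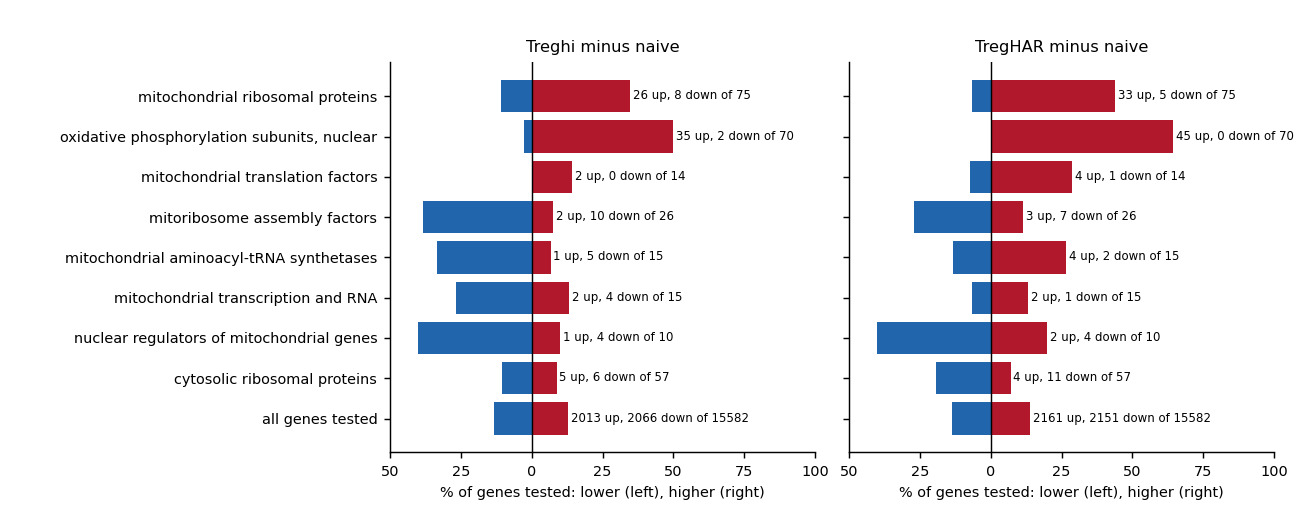
Share of tested genes called lower (bars to the left) and higher (bars to the right) at an adjusted p under 0.05 in Treghi (left panel) and TregHAR cells (right panel) relative to naive cells, per gene list, with the counts beside the bars. Mitochondrial ribosomal proteins (33 of 75) and oxidative phosphorylation subunits (45 of 70) have the longest bars to the right in TregHAR cells among the lists plotted, which leave out the proliferation genes and the 4 proteins with other symbols.

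Different probes of a member mostly gave the same sign. Of the 20 members with 2 or more probes above the ceiling on all arrays, all probes had 1 sign for 16 in each comparison with naive cells. The exceptions were *Mrpl3* (TregHAR), *Mrpl15* (Treghi) and *Mrpl37*, *Mrps31* and *Mrpl49* (both). In *Mrpl37* the probe used gave -0.29 in Treghi cells and the dimmer probe 0.06, so its call rests on 1 probe. *Mrpl49* had -0.18 in TregHAR cells by the probe used and 0.25 and 0.08 by the others.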

How the data were processed

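Labelled cRNA from 12 samples was hybridized to 12 arrays. The authors read out probe signals in GenomeStudio, and the deposited table, called non-normalized, holds intensity values with a mean of 257 on every array. These had therefore been scaled between arrays, and the lowest value was 73.7. The authors also deposited a log2 table made with lumi, in which background was corrected, variance stabilized and arrays aligned by robust splines, which was used as an alternative.

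Intensities were background-corrected (normexp, saddle-point estimate, offset 50), quantile normalized and taken to log2 with limma 3.58.1 in R 4.3.3. Genes were named from the platform annotation, in which 34885 of 45281 probes had 1 gene, 18 several and 10378 none. All 76 members matched RefSeq and 0 symbols changed. A gene was tested where its brightest probe exceeded the array median on at least 2 arrays. The background ceiling of an array lay 3 SDs above the mode of its log2 values, with the SD taken from values under the mode. The number of arrays limits the precision.

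A mean for each of 6 groups was fitted to all 12 arrays, with empirical Bayes moderation (residual degrees of freedom 6, prior 3.42). P-values are two-sided and were adjusted by Benjamini-Hochberg over 15582 genes, with a threshold of 0.05. Each treatment comparison averaged the difference in FACS and that in MACS cells. The study's methods name a t-test at a nominal p, which was an alternative. SE is the moderated standard error. The procedure was tested on simulated data. Members were named by size of change (10 in each direction per treatment comparison, or the 10 smallest p where fewer than 5 passed), with every member that ran against the majority and a set of members of known role reported whatever their result. Members, lists, motifs and alternatives were chosen with earlier results of these data known.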

Additional observations from a re-analysis of the deposited data

Results flagged for a closer look

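An array far from the others was sought for 33 members chosen by size of change, smallest p or known role, and for the median of all members. Of 102 groups of 4 arrays of a treatment, 5 met Dixon's criterion, where chance gives about 1 in 20. *Mrpl14* in naive cells was at 8.92 on the second FACS array, with the others at 9.32 to 9.40. *Mrps6* in naive cells was at 8.51 on the first FACS array, with the others at 8.18 to 8.22. *Mrps28* in Treghi cells was at 8.58 on the second MACS array, with the others at 8.20. *Mrps12* in TregHAR cells was at 10.68 on the first MACS array, with the others at 10.75 to 10.76. *Mrps21* in TregHAR cells was at 9.58 on the second MACS array, with the others at 10.29 to 10.35, and this array reached the naive range. The cause of these values was not tested.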

How the results depend on the processing

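Of the 33 members called higher in TregHAR minus naive, 26 kept the call in all of 10 alternatives (no background correction, median scaling, the deposited values, no filter, a stricter filter, the mean over probes, treatment alone, the block by replicate, the block by *Eif2s3y* and the methods' t-test adjusted) and 29 without any single array, and of the 5 called lower, 2 and 4. In Treghi minus naive these numbers were 17 and 21 of 26, and 5 and 6 of 8. Comparisons within a purification or against naive arrays with *Xist* signal are not among the 10. Scaling each array to a common median in place of quantile normalization raised the medians of the members to 0.40 and 0.31, and that of MACS minus FACS in naive cells moved to -0.30 with 2 members lower. It also raised the share of higher calls among all genes from 50.1% to 60.2% and from 49.4% to 59.2%. Adjusted by Benjamini-Hochberg, the methods' t-test called 3 members lower in TregHAR and 17 higher in Treghi cells, and at nominal p 13 higher in TregHAR minus Treghi. Within FACS precursors 18 and 14 members were higher than naive in TregHAR and Treghi cells, with 2598 genes called in the latter. Within MACS precursors 2 were lower in each, with medians of 0.37 and 0.29.

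Genes called in TregHAR minus Treghi were 46 with the deposited log2 values, 32 with the mean over probes, 118 with treatment alone in the fit, 8 and 1611 with the methods' t-test adjusted and nominal, 4 within FACS and 3 within MACS precursors. The replicate numbers were not taken as pairs, since the labels do not tie them. Deviations were correlated over 0.1 in 6 of 15 pairs of groups (range -0.62 to 0.42), and the highest was between FACS and MACS naive cells. The second array carried *Eif2s3y* signal in all 4 naive and Treghi groups. Whether arrays of the same number shared a donor was not tested. The replicate block gave 40 genes and 0 members in TregHAR minus Treghi, 36 higher and 5 lower in TregHAR minus naive, and 26 and 8 in Treghi minus naive. The interaction of purification with Treghi minus naive called 1 member with no background correction, median scaling, the deposited values, no filter, the mean over probes or a block by *Eif2s3y* signal. Without the 2 naive arrays that lacked *Xist* signal, a choice made after seeing the data, 23 members were higher and 6 lower in TregHAR and 20 and 8 in Treghi cells.

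Leaving out each array gave 29 to 34 members higher and 4 to 6 lower in TregHAR minus naive, 21 to 28 and 7 to 8 in Treghi minus naive, and 0 to 1 higher in TregHAR minus Treghi, where 12 genes were called without Treghi FACS replicate 1 and 142 without TregHAR FACS replicate 2. MACS minus FACS in naive cells called 100 to 565 genes (without naive FACS replicate 1 and naive MACS replicate 1) and 0 to 1 member lower, and the interaction with Treghi minus naive 0 to 1 member.

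Signs were followed only for members chosen by size of change, smallest p or known role in the comparison concerned. Of these the following changed sign, none of them called in that comparison as reported. In TregHAR minus naive, *Mrpl45* was 0.0365 with the mean over probes, *Mrpl3* -0.0526 without the naive arrays lacking *Xist* signal, *Mrpl58* -0.0719 and *Mrps30* -0.0838 within FACS. In Treghi minus naive, *Mrpl3* was 0.0404 and *Mrps30* 0.13 under median scaling, *Mrpl45* 0.0173 with the mean over probes, *Mrpl58* -0.0279 and *Mrps12* -0.0410 within FACS, and *Mrpl45* 0.0609 and *Mrps30* 0.17 within MACS. In TregHAR minus Treghi, *Mrpl45* was 0.00304 with the deposited values and 0.0192 with the mean over probes, *Mrpl47* -0.000275 with the latter, *Mrpl45* 0.11, *Mrps12* 0.0715 and *Mrps16* 0.20 within FACS, and *Mrpl55* -0.12, *Mrpl10* -0.0390 and *Mrps30* -0.0585 within MACS. Leaving out an array gave -0.0382 to 0.0637 for *Mrps30* in TregHAR minus naive, -0.17 to 0.0180 for *Mrpl3*, -0.0804 to 0.0151 for *Mrpl45* and -0.0948 to 0.00706 for *Mrps30* in Treghi minus naive, and -0.0287 to 0.12 for *Mrpl10*, -0.0492 to 0.0463 for *Mrpl45* and -0.13 to 0.0284 for *Mrps16* in TregHAR minus Treghi. The cause of these changes was not tested.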

Other observations

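The Y-linked gene *Eif2s3y* exceeded the ceiling on 6 of the 12 arrays, the second FACS and MACS arrays of naive and Treghi cells and both MACS arrays of TregHAR cells. *Mrpl52*, which encodes a large subunit protein without a bacterial counterpart, followed that split and not the treatment. Its log2 intensities were 8.55 to 9.01 on the 6 arrays with *Eif2s3y* signal and 7.41 to 8.20 on the 6 arrays without, so that all arrays with signal were above all without. It was the only member of which this held, as it did for 0.302% of all genes tested, with 0.135% lower on all arrays with signal. Its differences from naive were 0.17 ± 0.37 in TregHAR and 0.12 ± 0.37 in Treghi cells, against a median SE of 0.09 over the members.

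*Mrps18c* (SE 0.37), *Mrpl20* (SE 0.33) and *Mrpl22* (SE 0.20) were the other members with the widest spread. *Mrpl20* had 7.03, 7.62, 6.99 and 7.94 in naive, 8.30, 8.27, 7.43 and 9.07 in Treghi and 7.63, 7.89, 8.78 and 8.72 in TregHAR cells, and *Mrps18c* 7.81, 8.27, 7.24 and 8.56, then 8.51, 8.73, 7.74 and 9.41, then 7.77, 8.33, 8.998 and 8.92. In the 4 groups with 1 array of each kind, the array with *Eif2s3y* signal was the higher in all 4 for *Mrps18c* and in 3 for *Mrpl20*. With the signal as a block in the limma fit, *Mrpl20* was called higher in TregHAR (0.86 ± 0.22, adjusted p = 0.0164) and in Treghi cells (0.87 ± 0.22, adjusted p = 0.0165), where the fit without it gave adjusted p of 0.0867 and 0.0866. No gene and no member passed the threshold for the signal itself (*Mrpl52*, 0.98 ± 0.19, unadjusted p = 0.000688, adjusted p = 0.399). *Eif2s3y*, which defines the split, did not pass either, so this test cannot decide whether members follow it. In TregHAR cells the split is that of MACS against FACS, and those arrays add nothing to the estimate. The pattern was noticed in the data, and what else differed between these arrays was not tested.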
